A study of Mus musculus with 4 samples.

Results

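Pax7 occupancy was examined around 9 pluripotency genes, Pou5f1, Nanog, Sox2, Klf4, Esrrb, Zfp42, Lin28a, Tfcp2l1 and Prdm14, in mouse iPax7 muscle progenitors. A Pax7 peak was counted for a gene when its summit lay from 100 kb before the start to 100 kb after the end of that gene. The 9 genes stand among 22350 protein-coding genes on chromosomes 1 to 19 and X, and 6 of the 20579 Pax7 peaks in the list had their summit in 1 of these regions. iPax7 progenitors derive from mouse embryonic stem cells (ESCs) that carry a doxycycline (Dox)-inducible Pax7 transgene, and the antibody is directed against Pax7 itself, so transgenic and endogenous Pax7 cannot be told apart. The series has 2 Pax7 ChIP libraries and 2 input libraries, and all 4 came from cells of the same state. The ESCs were differentiated in serum as embryoid bodies, received Dox at 1 µg/ml from day 3, were sorted at day 5 as PDGFRα+FLK1- cells, were then grown with Dox and basic FGF at 10 ng/ml, and were harvested at day 9 after 6 days of Dox. Input is sheared chromatin that did not go through the Pax7 antibody, and it gives the background against which peaks are called.

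Both ChIP libraries were merged before peaks were called, as were both inputs, so each peak has a single value and no spread between replicates. No test could therefore be made for any peak or gene, and counts are given beside the same count over all protein-coding genes. Each peak carries a fold enrichment, which is the pooled ChIP signal at the summit over the local background, and a −log10 q, for which higher values mean stronger evidence for a peak. Over the whole list the lowest fold enrichment was 1.6, the median 5.22 and the highest 28, while −log10 q started at 2.07 and its median was 11.6. The list measures binding and no transcript, so whether these genes are silent in the progenitors was not measured here, and the sorted cells could not be checked against marker genes. Pax7 binding in undifferentiated ESCs or without Dox was not analysed here.

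The 9 genes belong to the transcriptional network that keeps ESCs able to form every lineage of the embryo. Pou5f1 (Oct4) and Sox2 bind DNA together at composite sites, and with Nanog they occupy each other's regulatory regions and those of the other members. Esrrb, Klf4, Tfcp2l1 and Prdm14 reinforce this circuit in the naive, or ground, state, while Zfp42 (Rex1) and Lin28a are widely used as markers of the undifferentiated cell. The network is shut down as ESCs leave pluripotency, although Sox2 and Klf4 are known to be used again in other lineages. Pax7 recognises DNA with a paired domain and a homeodomain, and it directs muscle stem cells in the embryo and the adult.

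The Pax7 peaks around these genes were few and lay mostly far from the promoters. Esrrb had 1 intronic peak close to its start, Klf4 had 2 intergenic peaks, Nanog had 1 and Lin28a had 2 at the outer part of their regions, and Pou5f1, Sox2, Zfp42, Tfcp2l1 and Prdm14 had 0. The short core that the paired domain contacts, GTCACG, was found within 50 bp of the summit in 3 of the 6 peaks, those of Esrrb and Nanog and the more distant one of Klf4. These summits are shown as the plus strand of NCBIM37 (mm9), 5′ to 3′, because they hold the strongest peak and every Pax motif match within 50 bp of the 6 summits. Capitals mark the core, which reads CGTGAC where it lies on the minus strand, and in Esrrb they also mark an octamer.
Nanog, chr6:122760582-122760682: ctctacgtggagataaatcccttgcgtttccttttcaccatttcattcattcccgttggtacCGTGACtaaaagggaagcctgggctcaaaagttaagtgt
Klf4, chr4:55502388-55502488: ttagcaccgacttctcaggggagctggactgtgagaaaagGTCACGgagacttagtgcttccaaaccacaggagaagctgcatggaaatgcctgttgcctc
Esrrb, chr12:87705095-87705265: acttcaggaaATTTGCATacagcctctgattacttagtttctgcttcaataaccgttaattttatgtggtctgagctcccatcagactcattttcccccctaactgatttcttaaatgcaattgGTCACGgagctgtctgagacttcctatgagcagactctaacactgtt

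The Nanog and Klf4 stretches are the 101 bp centred on the summit. The Esrrb stretch covers the same 50 bp on either side of the summit and runs further to the left, through the octamer. The centre of the core lay 6.5 bp from the summit in Esrrb, 7.5 bp in Klf4 and 14.5 bp in Nanog. The octamer, ATGCAAAT or ATTTGCAT on the other strand, is the sequence that the POU domain of factors such as Oct4 recognises. In the Esrrb peak it sat with 106 bp between it and the core.

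**Figure D1:**
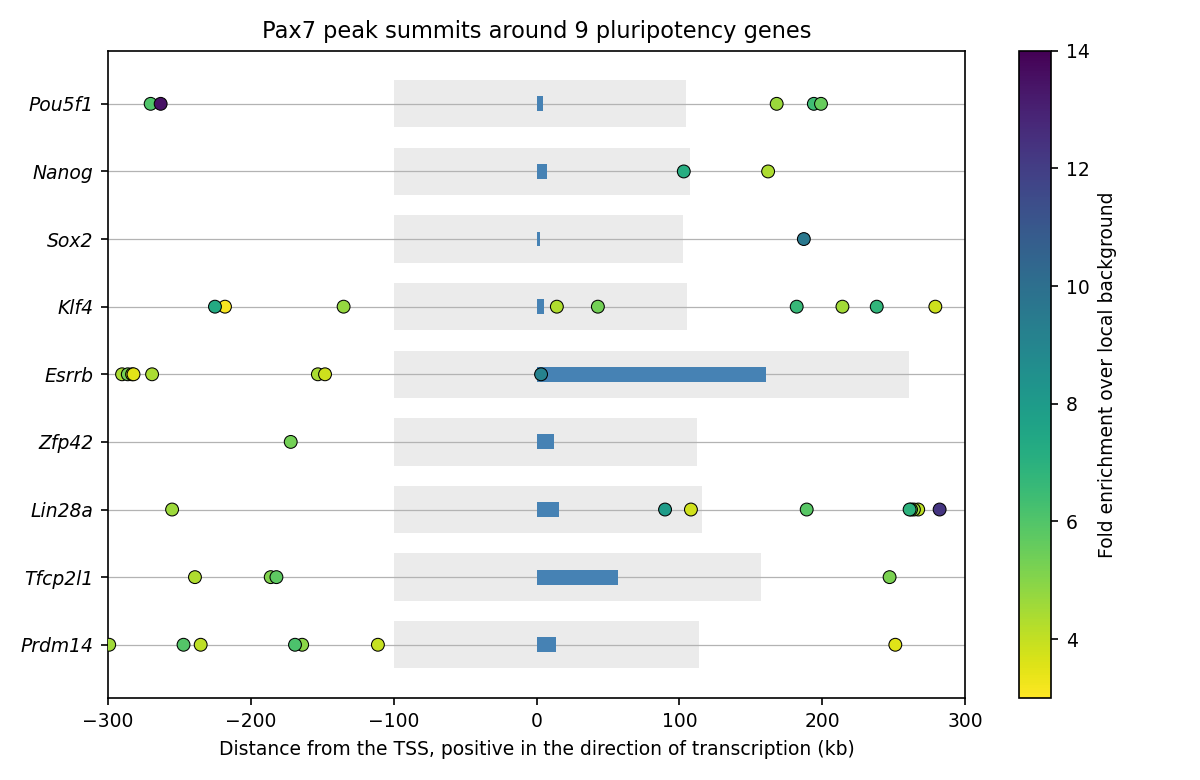
Pax7 summits around the 9 genes, plotted by distance from the transcription start site (TSS) in kb, positive in the direction of transcription. Blue bars are gene bodies, grey boxes are the regions within 100 kb of the gene, and the colour of each point is its fold enrichment; 6 summits lie in grey boxes, and the boxes of Pou5f1, Sox2, Zfp42, Tfcp2l1 and Prdm14 are empty.

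The core circuit was examined first. Pou5f1 (ENSMUSG00000024406), on the plus strand at chr17:35642982-35647721, had 0 Pax7 summits in its region of 205 kb. This region is gene-rich and holds the start sites of 9 other protein-coding genes, and no Pax7 summit lay at any of them or between them. The nearest summit lay 168 kb downstream of the Pou5f1 TSS, in a peak of 4.64-fold enrichment at chr17:35810703-35810876, and it was 111 bp from the start of Gtf2h4, which encodes a subunit of the general transcription factor TFIIH. A stronger peak of 6.43-fold lay in Ddr1, which encodes a collagen receptor, 194 kb downstream. On the upstream side the first summit was 263 kb away, 177 bp from the start of Ddx39b, an RNA helicase gene, where enrichment reached 13.5-fold. The Pou5f1 start was therefore in a stretch of 431 kb without a Pax7 summit, bounded at each end by a peak at the promoter of another gene.

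Sox2 (ENSMUSG00000074637), on the plus strand at chr3:34548927-34551383, also had 0 summits within 100 kb, and its region of 202 kb held no other protein-coding start. The Sox2 TSS was in a stretch of 788 kb between successive summits, longer than the corresponding stretch at 81.5% of protein-coding genes. Its downstream end was a peak at chr3:34735679-34736027, an intergenic site 187 kb from the Sox2 TSS. The enrichment there was 9.6-fold and −log10 q was 33.1, with a fold above 91.9% of all Pax7 peaks and above each of the 6 peaks inside the 9 regions. Sox2 was the protein-coding gene whose TSS lay nearest to it. On the upstream side no summit was found until an intron of Fxr1, which encodes an RNA-binding protein of the fragile X family, 601 kb away. A window of 100 kb thus contained no Pax7 site for Sox2, and a window of 200 kb contained 1 of the stronger sites in the list.

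Nanog (ENSMUSG00000012396), on the plus strand at chr6:122657507-122664651, had 1 peak, at chr6:122760539-122761152. It was 614 bp wide, the widest of the 6, was enriched 7.16-fold, more than 79.3% of all peaks, and reached a −log10 q of 23. Its summit was 103 kb downstream of the Nanog TSS and 96 kb beyond the end of the gene, so it lay just inside the region. The nearest protein-coding TSS was that of Slc2a3, which encodes the neuronal glucose transporter GLUT3, at 8.97 kb. Upstream of Nanog no summit was found for 361 kb. Dppa3, another early embryo gene whose protein-coding start lies in the same neighbourhood, had 0 peaks by the same rule and its nearest summit was this one, 184 kb from its TSS.

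Klf4 (ENSMUSG00000003032), on the minus strand at chr4:55540013-55545347, encodes a zinc-finger factor that is used both in ESCs and in epithelia. Its region held 2 peaks, both intergenic and both downstream, with Klf4 as the gene of nearest protein-coding TSS. The closer peak, at chr4:55531029-55531231, had its summit 14.2 kb from the TSS and was enriched 4.32-fold (−log10 q 6.81), and 25.4% of all peaks were weaker by fold. The other, at chr4:55502328-55502538, had its summit 42.9 kb away and was enriched 5.33-fold (−log10 q 16.9), near the middle of the list, in which 53% of peaks were lower. The core GTCACG was in the more distant and stronger of the pair, shown above, and neither Pax motif was in the closer one. No other protein-coding TSS lay within 100 kb of Klf4, and 4 more peaks further upstream, 135, 218, 225 and 590 kb from its start, also had Klf4 as their nearest protein-coding gene. Their fold enrichments were 4.72, 3.12, 7.32 and 4.44, so the strongest of the 6 peaks that were nearest to Klf4 was 225 kb upstream and outside the region.

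Esrrb (ENSMUSG00000021255), on the plus strand at chr12:87702067-87862578, encodes an orphan nuclear receptor and is the longest of the 9 genes at 161 kb. Its single peak, at chr12:87705038-87705377, was the strongest of the 6 and the only one inside a gene body. The summit lay in an intron 3148 bp downstream of the TSS. Enrichment there reached 9.11-fold (−log10 q 31.8), which ranked 2026 among all peaks and was above 90.1% of them. This was the peak in which the paired-box core lay nearest to the summit, and the octamer 106.5 bp from the summit was the only one found anywhere in the 6 peaks. An octamer was found anywhere within 2.57% of all Pax7 peaks (528 peaks), and the core within 15.8%. The rest of the gene held no summit: downstream of the peak the next one was 426 kb from the TSS, and upstream the next was 148 kb away. Of the 49 copies of GTCACG in the Esrrb region, 1 lay in a Pax7 peak.

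Tfcp2l1 (ENSMUSG00000026380), on the plus strand at chr1:120524522-120581744, encodes a grainyhead-like factor that acts downstream of LIF and is listed in the annotation under its older symbol Tcfcp2l1. It had 0 summits in 257 kb, and the nearest was 182 kb upstream in an intron of Clasp1, with 5.72-fold enrichment. Prdm14 (ENSMUSG00000042414), on the minus strand at chr1:13103538-13117244, encodes a PR-domain factor of ESCs and primordial germ cells, and it had 0 summits in 214 kb. Just outside its region, 111 kb upstream, a peak of 3.98-fold lay in an intron of Ncoa2, which encodes a nuclear receptor coactivator, and a stronger peak of 6.12-fold lay in the same gene at 169 kb. Both genes were thus flanked by Pax7 sites in introns of their neighbours, on the downstream side in Gli2 for Tfcp2l1 (247 kb, 5.23-fold) and in Slco5a1 for Prdm14 (251 kb, 3.52-fold).

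The markers of undifferentiated cells differed from each other in their peak counts. Zfp42 (ENSMUSG00000051176), on the minus strand at chr8:44380422-44392363, encodes a zinc-finger protein and had 0 summits in 212 kb. Its nearest summit was 172 kb upstream with 5.35-fold enrichment, and downstream none was found for 1160 kb. The resulting stretch of 1330 kb without a summit was the longest of the 9, and longer than the stretch at 88.4% of protein-coding genes. Lin28a (ENSMUSG00000050966), on the minus strand at chr4:133559245-133574756, encodes an RNA-binding protein that blocks let-7 maturation, and it had 2 peaks, both intergenic and downstream. The peak at chr4:133484633-133485032 lay 89.9 kb from the TSS and was enriched 7.95-fold (−log10 q 29). The peak at chr4:133466561-133466762 lay at 108 kb and was enriched 3.8-fold (−log10 q 5.34). They were among the stronger and the weakest of the 6, with 84.4% and 11.6% of all peaks below them. Neither had Lin28a as its nearest protein-coding gene. For the first this was Hmgn2, a nucleosome-binding protein gene, at 38.3 kb. For the second it was Rps6ka1, a ribosomal S6 kinase gene, at 22.9 kb. Neither peak held an exact match to a Pax motif within 50 bp of its summit.

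In sum over the 9 regions, 4 genes (44.4%) had at least 1 Pax7 peak, and the median was 0 peaks per gene. Over all protein-coding genes, 75.2% had at least 1 peak by the same rule (16812 of 22350, 95% Wilson interval 74.7 to 75.8, which covers counting error only), with a median of 2. Of all protein-coding genes 24.8% had 0 peaks, 16.3% had 1 and 15.8% had 2, so the counts seen at the 9 genes were the 3 most frequent in the genome and none of the 9 exceeded the genome-wide median. The 9 regions together spanned 2080 kb and held 0.289 peaks per 100 kb, beside 0.805 over the sequenced genome and a median of 0.916 per protein-coding gene. With 9 genes chosen by name and a pooled list, this difference has no test. It also depended on the distance: from 200 kb before to 200 kb after the gene all 9 genes had a peak, beside 84.6% of protein-coding genes, and the median was 3 beside 4.

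**Figure D2:**
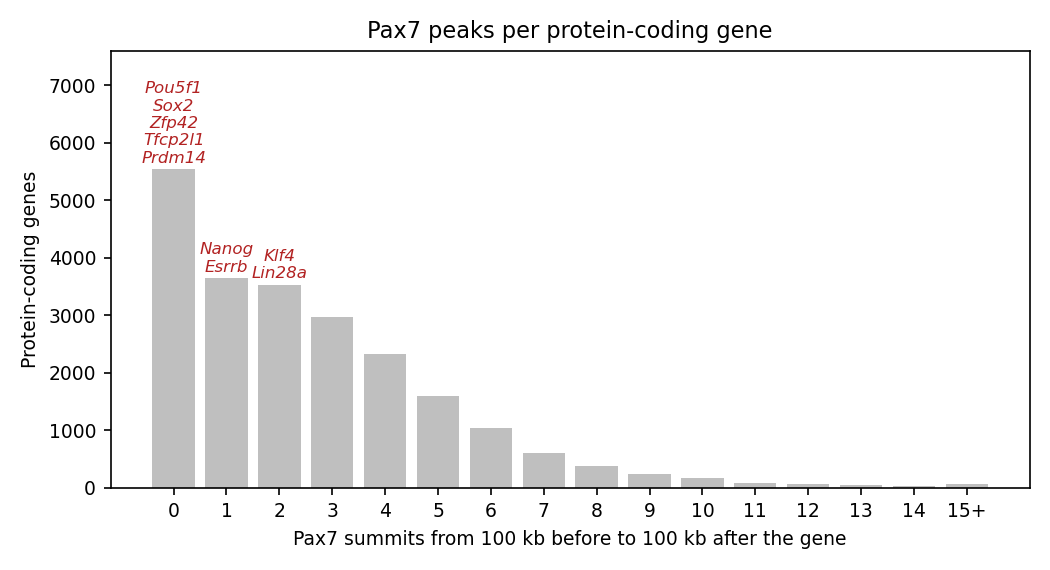
Number of protein-coding genes (y axis) by their number of Pax7 summits from 100 kb before to 100 kb after the gene (x axis). The 9 pluripotency genes are named above the bar that counts them; 5 stand at 0 and the others at 1 or 2, and the median of all genes is 2.

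The promoters themselves carried no Pax7 peak. A summit lay within 1 kb of an annotated TSS of the gene in 0 of the 9, beside 14.1% of protein-coding genes (3142). The nearest summit to the TSS was 3.15 kb away for Esrrb and 14.2 kb for Klf4, then 89.9 kb for Lin28a, 103 kb for Nanog and 111 kb for Prdm14. For Pou5f1, Zfp42, Tfcp2l1 and Sox2 it was 168, 172, 182 and 187 kb. The median of these distances was 111 kb, beside 41 kb over all protein-coding genes. A nearer summit was found at 15.6% of protein-coding genes for Esrrb and at 82.7% for Sox2, so the members ranged from genes with a close Pax7 site to genes farther from one than most.

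**Figure D3:**
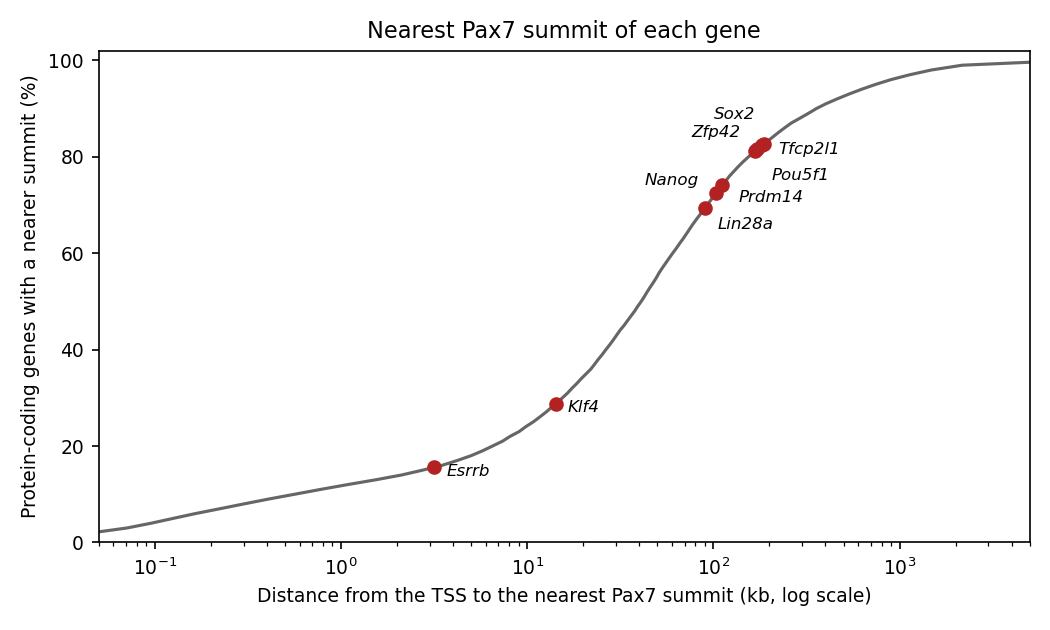
Distance from the TSS to the nearest Pax7 summit in kb on a log scale (x axis) against the percent of protein-coding genes with a nearer summit (y axis). The line is all protein-coding genes and the points are the 9 pluripotency genes; Esrrb and Klf4 lie on the left at 3.15 and 14.2 kb, and the other 7 lie between 89.9 and 187 kb.

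Assigning each peak to the protein-coding gene with the nearest TSS gave a different picture. By this rule 3 of the 9 genes had a peak, Klf4 with 6, Esrrb with 1 and Sox2 with 1, beside 37.4% of all protein-coding genes. Nanog and Lin28a lost their peaks to neighbours, and Sox2 gained the site 187 kb downstream. The number of other protein-coding starts in the region varied from 0 for Sox2, Klf4, Esrrb, Tfcp2l1 and Prdm14 to 9 for Pou5f1. Among the 1743 protein-coding genes with no other start in their region, 65% had a peak, and 2 of the 5 members of this kind did. Among genes with 1 to 3 other starts the share was 74.7% and 1 of 2 members had a peak, and among genes with 4 or more it was 77% and 1 of 2 members did. In each of these classes the members are too few for a share to be compared.

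Between 100 and 200 kb from the gene, 17 further peaks were found, and each of the 9 genes had from 1 to 3 of them. All 5 genes without a peak inside 100 kb had at least 1 in this outer ring. The ring was chosen after values were seen, and the share of all protein-coding genes with a peak in it was not counted. Peaks at this distance were common in the genome. Over all protein-coding genes the mean was 2.61 peaks with 100 kb around the gene and 4.63 with 200 kb. Most of these peaks lay nearer to another gene, and the member was the nearest protein-coding TSS for 2 of the 17, the Sox2 peak and the Klf4 peak at 135 kb. A Pax motif lay within 50 bp of the summit in 2 of the 17, beside 12% of all Pax7 peaks.

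The strength of the 6 peaks spanned much of the range of the list. Their fold enrichments were 3.8, 4.32, 5.33, 7.16, 7.95 and 9.11, with a median of 6.24 beside 5.22 for the whole list, for which the lower and upper quartiles were 4.32 and 6.74. Enrichment was at least 5-fold in 4 of the 6, beside 54.9% of all peaks. The peaks of Esrrb, Lin28a (at 89.9 kb) and Nanog were above the upper quartile, and those of Klf4 (at 14.2 kb) and Lin28a (at 108 kb) were at or below the lower one.

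**Figure D4:**
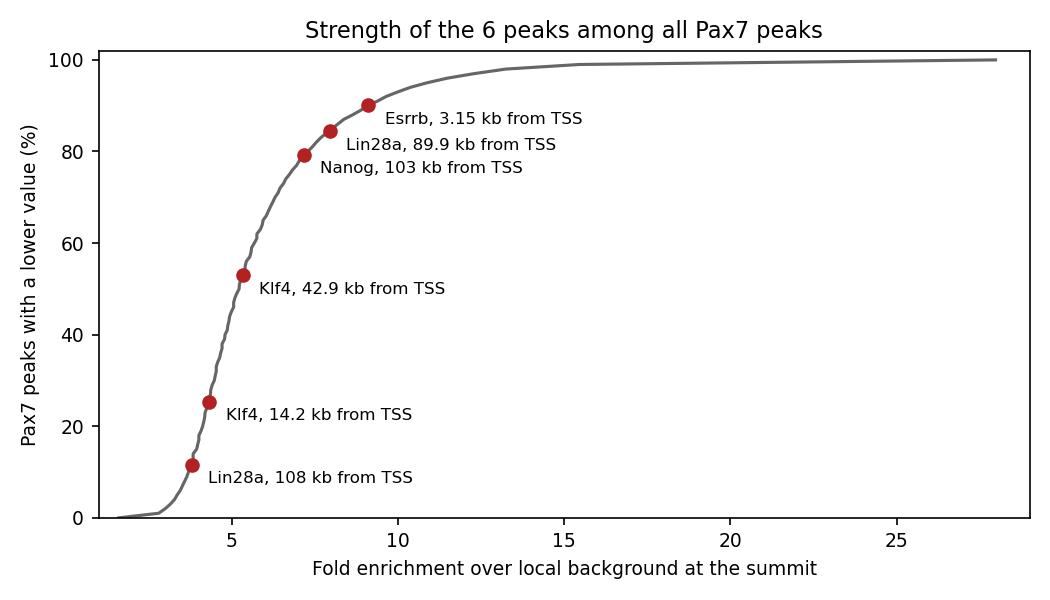
Fold enrichment over the local background at the summit (x axis) against the percent of all 20579 Pax7 peaks with a lower value (y axis). The line is the whole list and the points are the 6 peaks around the pluripotency genes, named by gene and distance from the TSS; they run from 3.8-fold, above 11.6% of peaks, to 9.11-fold, above 90.1%.

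The paired-box core GTCACG was found within 50 bp of the summit in 3 of 6 peaks, beside 11.1% of all Pax7 peaks (2292), with both strands searched. The count remained 3 of 6 within 25 bp, beside 7.24%, and within 100 bp, beside 14.2%. The homeodomain dimer site, TAAT and ATTA with NN between them, was in 0 of 6, beside 0.831%, and the octamer ATGCAAAT in 0 of 6 within 50 bp, beside 1.03%. A control hexamer, GCACTG, was in 1 of 6, the closer Klf4 peak, beside 6.86%. It has the same base composition as the core but lacks its CG pair. The rate of the control over the genome was not counted, so 6.86% is not a background rate for the core. Copies of the core outside Pax7 peaks were common: the 9 regions held 223 copies, of which 3 lay in Pax7 peaks. Sox2 held 32 in its region and Pou5f1 22, none of them in a peak. The density was 10.7 per 100 kb over the 9 regions and ranged from 7.78 to 15.8 between genes, highest at Sox2, beside a median of 9.59 around protein-coding genes and 8.14 over the genome, where 1.72% of 208053 copies lay in a Pax7 peak. The 5 genes without a peak thus also held copies of the hexamer, and with 6 peaks the motif counts have no test.

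The wider pluripotency network was read in the same way with 37 further genes. Of these, 26 (70.3%) had at least 1 Pax7 peak beside 75.2% of protein-coding genes, and the median was 2, the same as for all genes. Their 89 peaks had a median enrichment of 5.04-fold (2.5 to 12.3) and a density of 1.04 per 100 kb. A peak lay within 1 kb of an own TSS in 5 of the 37, beside 14.1% of protein-coding genes.

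The LIF pathway, through which leukaemia inhibitory factor sustains mouse ESCs and which also acts in many differentiated cells, had a peak at 6 of 6 genes with a median of 4, beside 75.2% and a median of 2 for all protein-coding genes. Stat3, the transcription factor that the receptor activates, had the most, with 6 peaks of 2.5- to 8.5-fold. Stat3 had the nearest protein-coding TSS for 1 of these, and the others were nearest to Stat5b, Ptrf or Atp6v0a1. The peak nearest to Stat3 was the strongest of the 6. It was 802 bp wide and its summit lay 14 bp from the Stat3 TSS, at chr11:100800611-100801412. No gene of this group had 0 peaks.

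The ground-state transcription factors had a peak at 9 of 12 genes (75%) with a median of 2, close to the 75.2% and median of 2 over all protein-coding genes. Tcf7l1 (Tcf3), the Wnt pathway repressor that limits the network, had 15 peaks, more than 99.7% of protein-coding genes. That rank is by raw count, and its region was long at 363 kb. The density there was 4.13 per 100 kb, beside a median of 0.916 per protein-coding gene. Of the 15 peaks, 11 lay inside its gene body of 163 kb. Tcf7l1 had the nearest protein-coding TSS for 6 of the 15, and the others were nearest to Capg, Gm15401 or Kcmf1. The strongest, at 12.3-fold, held a Pax motif and lay in an intron of the neighbour Kcmf1, 75.5 kb upstream of the Tcf7l1 TSS, while those in Tcf7l1 itself ranged from 2.62- to 8.19-fold. Tbx3 and Nr0b1 were among those with 0 peaks.

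Genes expressed in ESCs and the early embryo had a peak at 8 of 13 (61.5%) with a median of 1, beside the same 75.2% and 2. Lin28b, the paralogue of Lin28a, had 7 peaks of 3.59- to 8.51-fold, but 5 of these lay downstream in introns of Bves and Popdc3, which encode Popeye-domain proteins of striated muscle. One peak of 4.32-fold lay inside Lin28b, 63 bp from the annotated start of one of its transcripts, and held a Pax motif. From the TSS of the whole gene it was 16.1 kb away. By that measure the nearest summit of Lin28a was at 89.9 kb. Dppa2, Dppa3, Dppa4, Dppa5a and Dnmt3l had 0 peaks. Dppa2 and Dppa4 are neighbours on chromosome 16, so their zeros are not separate observations.

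Genes of primed pluripotency, the later state of the epiblast, had a peak at 3 of 6 with a median of 0.5, again beside 75.2% and 2. Fgf5, a growth factor gene of the epiblast, had 7 peaks of 4.17- to 10.1-fold, of which 1 was inside the gene, 9.51 kb from its TSS. Fgf5 had the nearest protein-coding TSS for 4 of these peaks, and the others were nearest to 1700007G11Rik. Sox3, Zic2 and Foxd3 had 0 peaks. The number of peaks thus varied within each group except the LIF pathway from 0 to 7 or more.

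**Figure D5:**
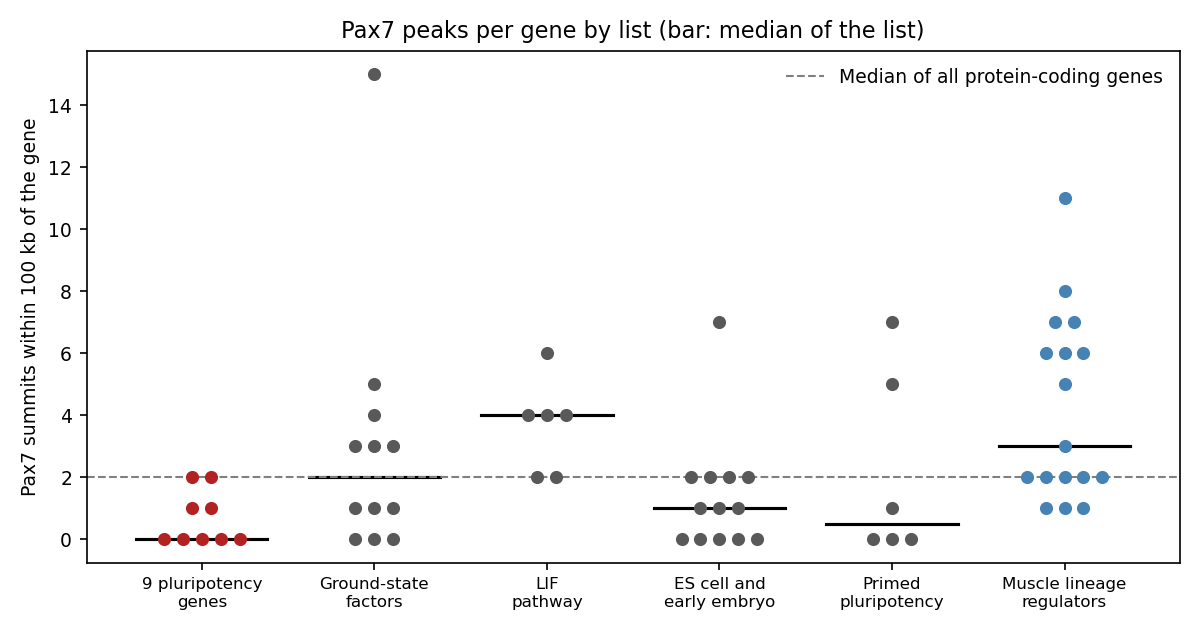
Pax7 summits within 100 kb of each gene (y axis) for the 9 pluripotency genes, the 4 groups of other network genes and the muscle lineage regulators (x axis). Each point is a gene, solid bars are group medians (0, 2, 4, 1, 0.5 and 3 from left to right), and the dashed line is the median of all protein-coding genes at 2.

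Regulators of the muscle lineage served as the contrast, although Myf5 and Myod1 were among those known beforehand to have Pax7 peaks. All 17 genes on that list had at least 1 peak, beside 75.2% of protein-coding genes, and the median was 3 beside 2. Their density was 1.78 per 100 kb, with a peak shared by neighbouring genes counted for each of them. Over the sequenced genome the density was 0.805, and the median per protein-coding gene was 0.916. The median distance to the nearest summit was 3.76 kb, beside 111 kb at the 9 pluripotency genes and 41 kb over all protein-coding genes. The enrichment of their peaks had a median of 5.59-fold, below the 6.24-fold of the 6 peaks described above. The lists thus differed in the number of peaks per gene and their distance from the TSS. The median enrichment at the 9 pluripotency genes depended on the rule. It was 5.33-fold with 50 kb around the gene and 5.03-fold by the nearest TSS. The median of the muscle list was not computed by these rules, so the order of the lists by enrichment was seen only with 100 kb. None of these differences was tested.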

How the data were processed

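Per the labels and the methods, reads of the Pax7 ChIP and input libraries were aligned to mm9 with bowtie2 2.3.4.1, duplicates were removed with Picard 1.88, and peaks were called with MACS2 2.1.1 at a q-value of 0.01 after replicates were merged. The deposited list gives for each peak a fold enrichment (a ratio that the authors computed over local background), −log10 of the p-value and q-value, a score and the position of the summit. The deposited score was not used further. Per-library depth was not used here and the list holds no read counts, so a single peak has no interval. Per-sample columns without a sample numbered 0.

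Summits were placed on NCBIM37 with GENCODE vM1 in Python 3.11.15 (pandas 2.3.3, pysam 0.24.0), with 1-based coordinates. All 63 listed genes were found, 1 by an older symbol. Both strands of the 50 bp to either side of a summit were searched for motifs. The counting was tested on simulated data. The 9 genes and all lists were chosen with earlier results of these data known. All 9 genes and each of their peaks were described. Sequences were shown for the strongest peak and those with a Pax motif, and of the other network genes those with most peaks and with 0 in each group were named, with their neighbours added where a peak lay in or near them; 1 gene of these lists is counted but not reported here by name. The outer ring from 100 to 200 kb, the octamer stretch of Esrrb, and the remarks on peaks outside the regions were chosen after values were seen. Alternatives changed the distance, the peak threshold, the overlap rule and the assignment to genes.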

Additional observations from a re-analysis of the deposited data

How the results depend on the processing

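The counts followed the distance around the gene. With 25 kb, the 9 genes had 2 peaks at 2 genes, 49.8% of protein-coding genes had a peak, and the other network genes and the muscle regulators had 38 and 31 peaks. With 50 kb these values were 3 peaks at 2 genes, 62.1%, 59 and 40, and with 200 kb they were 23 peaks at 9 genes (median 3), 84.6%, 166 and 104. The share of protein-coding genes with a peak was 71.8% within 100 kb of the TSS, 73.9% at a −log10 q of at least 5, 61.3% at 5-fold enrichment or more and 37.4% by the nearest TSS. At 5-fold or more, 4 peaks at 4 of the 9 genes were left, and the other network genes and muscle regulators had 45 and 40. Within 100 kb of the TSS, 4 peaks at 3 of the 9 genes were left. In all, 37 of 59 alternative values stayed within the limits set for a change (1.5 times for counts and medians, the 95% Wilson interval for the share of protein-coding genes) and 22 did not. Alternatives for the muscle regulators were chosen after seeing the data. No paired analysis was possible because the list pools the replicates, and for the same reason no replicate could be left out. Depth per library limits which weak sites were called, and a gene with 0 peaks had none detected at this depth.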
